A study of Acipenser sinensis with 45 samples.

Results

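The 100 unigenes highest in the stage I pituitary were taken from 121952 unigenes measured in the hypothalamus, pituitary and gonad of Chinese sturgeon (Acipenser sinensis). A unigene is an assembled transcript sequence that stands for a gene or part of one. For each unigene, the mean of log2(FPKM + 1) was taken in each of 9 groups, and the score was the mean in the stage I pituitary minus the highest of the other 8 means. The 100 unigenes with the highest scores were the members, and every one had a score above 0. FPKM, the unit of the deposited values, is the number of mapped fragments scaled by transcript length and by the size of the library, so levels can be compared between unigenes per length.

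The stage I pituitary group (UP) came from 6 fish of undetermined sex that were 1 year old. The other pituitary groups came from stage II fish over 4 years old, with 3 females (FP) and 6 males (MP). Hypothalamus and gonad were taken from the same 15 fish, giving FH, MH and UH for the hypothalamus of the stage II females, the stage II males and the stage I fish, and FG, MG and UG for the gonad. The fish were untreated and came from an artificially bred population kept at one institute. Stage and age change together between UP and the stage II groups, and the sex of the stage I fish was not known, so stage, age and sex cannot be told apart in those comparisons. Each library came from a bulk piece of tissue, in which fewer cells of a type and less RNA per cell cannot be told apart.

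The pituitary stands between the brain and the gonads. Neurons of the hypothalamus act on its secretory cells, which release gonadotropins, growth hormone, prolactin and other hormones into the blood, and gonadotropins drive the maturation of the gonads. Sex is first visible in gonad sections at stage II.

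The files used here do not pair the unigenes with gene names, and 0 of the identifiers matched the 78555 genes of the RefSeq table for the CSRI_AciSin_1.0 assembly. The members are therefore given by identifier, with no gene role and no sequence, and hormone or cell type marker lists could not be applied to check the tissue label. As a check of the labels from the values, the nearest library of each of the 6 UP libraries, by correlation across the unigenes outside the 100, was another UP library. Across all libraries the nearest one was of the same tissue for 45 of 45 and of the same group for 44 of 45. FP replicate 1 was the 1 library that lay closest to another group, namely to MP replicate 2 (r = 0.754 across unigenes). FP replicates 2 and 3 were nearest to each other (r = 0.924). In the hypothalamus, FH replicates 2 and 3 were nearest to each other (r = 0.879), and FH replicate 1 was nearest to FH replicate 2 (r = 0.767). FP replicate 1 was sequenced on the HiSeq 2000, as were 39 of the libraries, while the other 2 females were sequenced on the HiSeq 4000, which gave 6 libraries. FP replicate 1 had 68917 unigenes at 1 FPKM or more, against 51685 in FP replicate 2 and 53145 in FP replicate 3. Relative depth, read from low FPKM values, was between 0.930 and 0.987 in UP, and between 0.789 and 1.41 over the other groups. The title words of male fish 4 place hypothalamus and pituitary the other way round from its sample codes, and the sample codes were followed. By their values both libraries went with the codes, since the nearest library to MP replicate 4 was MP replicate 2 (r = 0.928 across unigenes) and the nearest to MH replicate 4 was MH replicate 2 (r = 0.935).

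The scores of the members were between 1.39 and 2.98 on the log2(FPKM + 1) scale, with a median of 1.55, and 9 members had a score of 2 or more. The last members inside were CL23376.Contig2_All, Unigene68624_All and CL13182.Contig1_All, each with a score of 1.39. The first unigenes outside were Unigene68531_All at 1.39, Unigene16363_All at 1.38 and CL10658.Contig1_All at 1.38, so the limit of 100 fell where scores were close together. In all, 19192 unigenes, 15.7% of the table, had a score above 0. With the same rule the 100th score was 1.39 for UP, 2.15 for FP and 1.11 for MP. It was higher in the gonads, at 2.32 for MG, 2.27 for UG and 6.58 for FG.

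The members were present in every stage I pituitary and were not confined to it. Their mean levels in UP were between 5.59 and 178 FPKM with a median of 16.2 FPKM; 4 members were over 100 FPKM and 17 were under 10 FPKM. At 1 FPKM or more in all 6 UP libraries stood 98 of the 100, and the exceptions, Unigene61356_All and Unigene49450_All, were under 1 FPKM in UP replicate 1 alone. A mean under 1 FPKM in all 8 other groups was found for 0 of the 100 members. It was also found for 0 of the 26295 unigenes with a mean in UP at least as high as the lowest member. The count is thus not particular to the members. With no member confined to UP, the label of a stage I pituitary-specific set holds only as a difference in level. The members are called here the unigenes highest in the stage I pituitary.

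The members were found at different levels in the 3 tissues, beside the UP level that the rule selected. The median of the members' mean FPKM was 16.2 in UP, 2.14 in FP and 4.14 in MP among the pituitaries. It was 0.185 in FH, 1.21 in MH and 2.27 in UH in the hypothalamus, and 0.0361 in FG, 0.672 in MG and 0.592 in UG in the gonad. The group with the second highest mean was MP for 60 members, UH for 25 and FP for 9. For the rest it was UG in 3 members and MH, MG or FG in 1 member each.

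**Figure D1:**
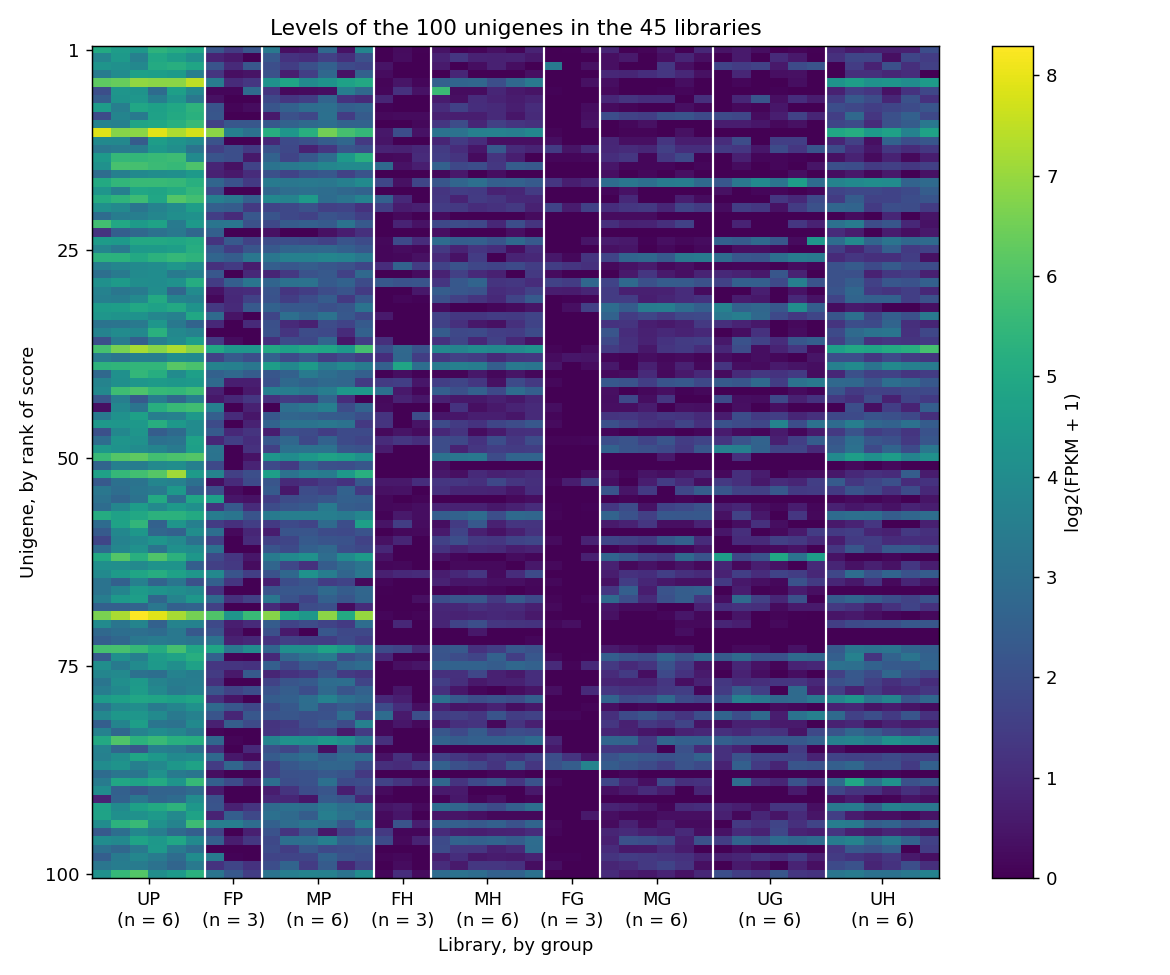
Level of each of the 100 unigenes (rows, by rank of score from the top) in each of the 45 libraries (columns, by group), as log2(FPKM + 1) in colour. The 6 UP libraries at the left are bright over the whole height, MP is next, and FG is dark for nearly all rows, with 92 of 100 members at a mean under 1 FPKM there. Of the 26295 unigenes with a mean in UP at least as high as the lowest member, 52.8% reached 1 FPKM in FG. The rule held FG under UP for every member.

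The summed level of the 100 unigenes separated UP from all other libraries, which the rule made likely. The sum was 2488 ± 372 FPKM in UP (SD, n = 6), 360 ± 222 FPKM in FP (n = 3) and 675 ± 123 FPKM in MP (n = 6). The sum in the 6 UP libraries was between 1831 and 2764 FPKM, above every other library, since the highest in MP was 828 FPKM and the highest in UH was 511 FPKM. The members made up 0.359 ± 0.0554% of all FPKM in UP, against 0.101 ± 0.0184% in MP and 0.0576 ± 0.0102% in UH. Among the females the sum was 616 FPKM in FP replicate 1, against 219 FPKM in FP replicate 2 and 245 FPKM in FP replicate 3.

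**Figure D2:**
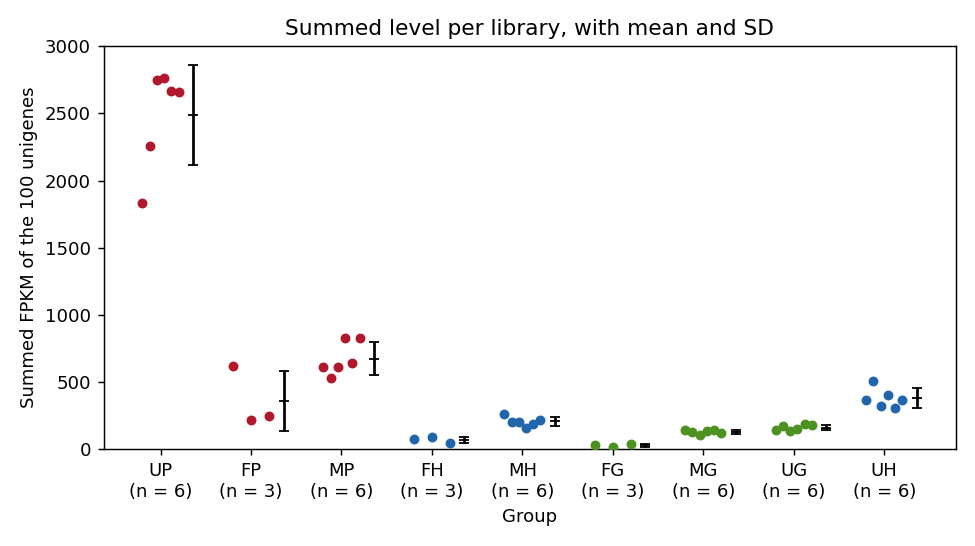
Summed FPKM of the 100 unigenes in each library (points), with the mean and SD of each group in black. The UP libraries sit between 1831 and 2764 FPKM, all above the 39 other libraries, and FP replicate 1 lies apart from the other females.

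The highest score, 2.98, belonged to CL14901.Contig4_All. It had 31.7, 23.1, 19.95, 39.7, 34.2 and 29.5 FPKM in UP replicates 1 to 6. In FP it had 3.53, 1.69 and 3.51 FPKM, and in MP it had 0.252 FPKM at the lowest, 3.21 at the median and 12.7 at the highest. No UP library overlapped with any other library. MP was spread widely, because replicates 1, 4 and 6 had 9.31, 6.02 and 12.7 FPKM while replicates 2, 3 and 5 had at most 0.397 FPKM. In UH the highest library had 2.92 FPKM, and in the gonads no group mean reached 1 FPKM.

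Unigene68575_All, with a score of 2.70, had 12.5, 21.1, 11.3, 30.0, 23.3 and 16.6 FPKM in UP replicates 1 to 6. It was at most 3.82 FPKM in MP, at most 2.36 FPKM in UH and listed at 0 in all 3 FG libraries. Its UP libraries lay above all others without overlap. Unigene2635_All, with a score of 2.65, had 18.7, 16.9, 13.7, 32.8, 36.2 and 28.6 FPKM in UP. Its highest value elsewhere was 9.37 FPKM in FG replicate 1, where FG replicates 2 and 3 had 0 and 0.302 FPKM, and that library alone came near the UP range. Unigene78445_All, with a score of 2.47, had 9.89 FPKM at the lowest, 18.6 at the median and 25.04 at the highest in UP, and at most 5.86 FPKM in MP. It did not reach a mean of 1 FPKM in any hypothalamus or gonad group.

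Unigene48396_All combined a high score, 2.28, with a high level. It had 74.4, 80.8, 122, 115, 113 and 177 FPKM in UP replicates 1 to 6. In MP it was between 14.3 and 31.2 FPKM with a median of 21.9, and in UH between 15.4 and 24.3 FPKM with a median of 18.5. Both were well under the lowest UP library, and MP and UH overlapped with each other. It had 10.05, 1.03 and 1.49 FPKM in FP, so that FP replicate 1 stood above the other females.

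Overlap with single libraries was seen in 3 of the 10 highest scores. Unigene70826_All, also with a score of 2.28, had 3.01, 19.1, 18.3, 6.52, 24.7 and 13.3 FPKM in UP, and MH replicate 1 had 49.3 FPKM while the other 5 MH libraries had at most 0.846 FPKM. The single library thus exceeded every UP library, although the median over MH was 0.404 FPKM. Unigene78078_All, with a score of 2.06, had 4.39 FPKM in UP replicate 1 and between 8.70 and 19.6 FPKM in the other UP libraries, against at most 5.41 FPKM in MP and 4.03 FPKM in UH. Unigene32237_All, with a score of 2.01, had 2.70 FPKM in UP replicate 1, the lowest of the 6, and 37.7 FPKM in UP replicate 6, the highest. In both of these unigenes only UP replicate 1 fell into the range of the other groups.

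Unigene38711_All and Unigene3281_All completed the 10 highest, with scores of 2.03 and 1.99. Unigene38711_All had between 10.6 and 40.5 FPKM in UP with a median of 27.2, and at most 7.21 FPKM in MP. Unigene3281_All had between 11.2 and 48.7 FPKM in UP with a median of 28.7, and its highest value elsewhere was 8.91 FPKM in UH replicate 6. Neither overlapped with another library.

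**Figure D3:**
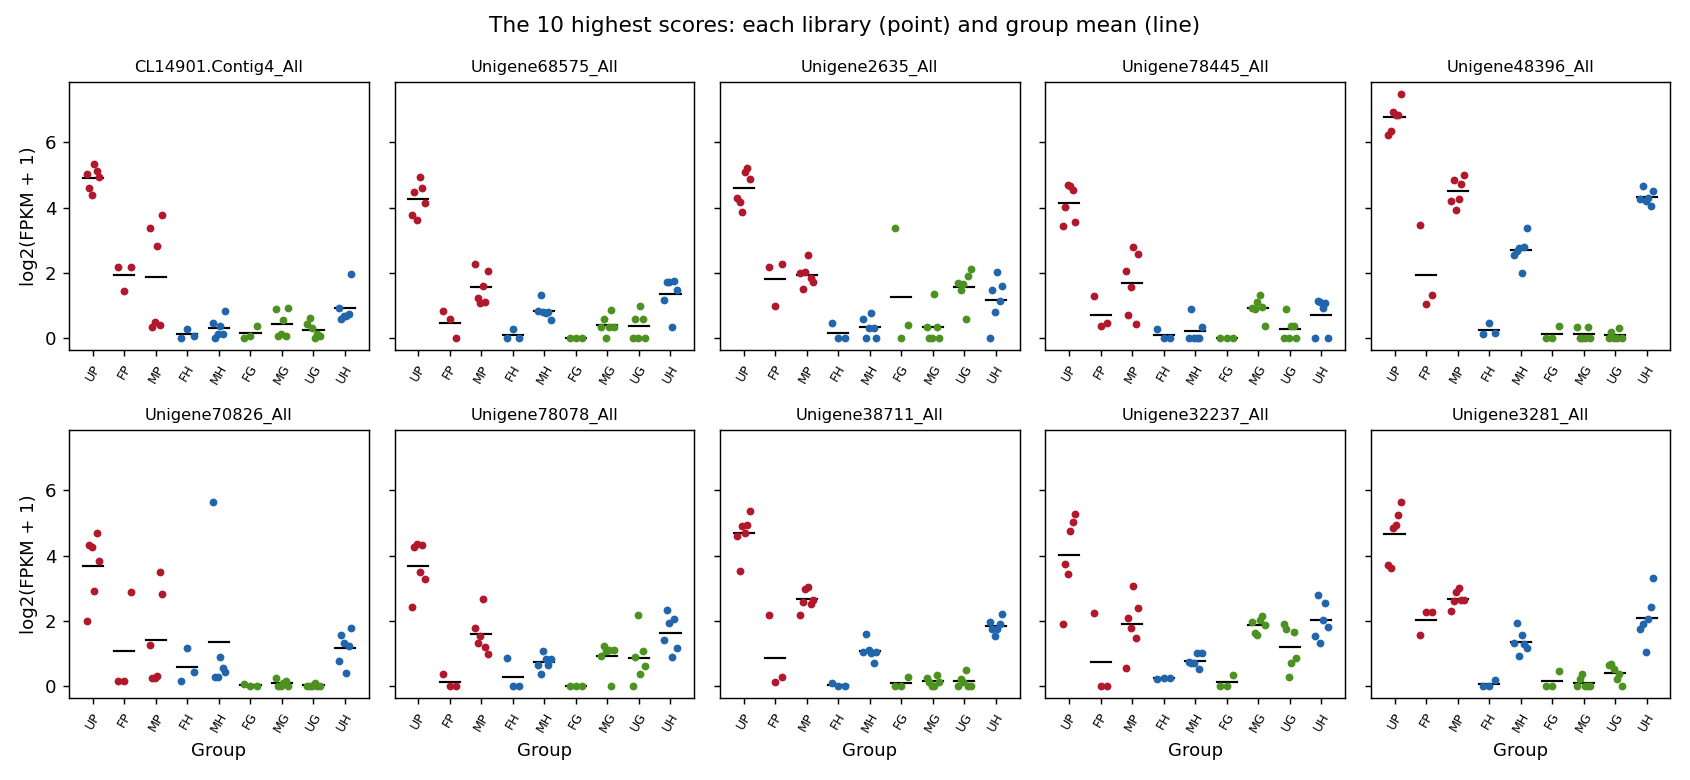
Levels of the 10 unigenes with the highest scores in each library (points) and the group means (lines), as log2(FPKM + 1), with pituitary groups in red, hypothalamus in blue and gonad in green. UP stands above the other groups in every panel, and single points stand out in MH for Unigene70826_All (49.3 FPKM) and in FG for Unigene2635_All (9.37 FPKM).

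The most abundant members in UP were not those with the highest scores. CL2391.Contig2_All had 236, 110, 114, 239, 152 and 216 FPKM in UP replicates 1 to 6, a mean of 178 ± 59.8 (SD, n = 6). In FP it had 114, 11.1 and 7.45 FPKM, and in MP between 19.4 and 92.1 FPKM with a median of 40.8. FP replicate 1 reached the lower UP libraries, so the groups overlapped. It was listed at 0 in all 6 UG libraries, whereas UH had between 11.8 and 34.3 FPKM.

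Unigene52825_All averaged 173 ± 86.1 FPKM in UP, with 98.0, 150, 313, 239, 147 and 93.2 FPKM in replicates 1 to 6. FP had 63.7, 19.0 and 47.2 FPKM, and MP had 110, 28.3, 19.9, 114, 32.2 and 126 FPKM in replicates 1 to 6. MP replicates 1, 4 and 6 thus lay within the UP range and the other 3 below it, the same division of male fish as in CL14901.Contig4_All. In the hypothalamus and gonad groups no library reached 1 FPKM, which made it the most abundant member seen at that level in the pituitary alone.

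CL1221.Contig3_All had between 57.0 and 155 FPKM in UP with a median of 110, at most 54.8 FPKM in MP and at most 56.5 FPKM in UH. Its lowest UP library was just above these and did not overlap. Unigene32583_All was the steadiest of the 5 most abundant, with 61.0 ± 9.71 FPKM in UP, between 46.6 and 73.7 FPKM. It had 15.3 to 26.6 FPKM in MP and 12.4 to 24.04 FPKM in UH, and it was listed at 0 in all FH and all FG libraries.

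In 55 of the 100 members the lowest UP library lay above all 39 other libraries. Over all unigenes this held for 0.452%, and since the rule used the same contrast nothing is read from the difference. The count was made on unscaled FPKM and was lower after scaling between libraries, as given below. The highest value outside UP lay most often in MP, for 49 of the 100 members. By library it lay in MP replicate 4 for 19 members, MP replicate 6 for 14, FP replicate 1 for 11 and UH replicate 2 for 9. No share over all unigenes is set beside these counts, so nothing is read from them.

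Where else the members were expressed divided them into 4 kinds. Taking a group mean of 1 FPKM as the limit, 47 members reached it in both a hypothalamus and a gonad group, 31 in a hypothalamus but no gonad group, 8 in a gonad but no hypothalamus group and 14 in neither. Of the 26295 unigenes with a mean in UP at least as high as the lowest member, 92.5% reached it in both tissues, 5.15% in the hypothalamus alone, 1.27% in the gonad alone and 1.04% in neither. The rule used the highest of the other means, so these shares are a description of the choice. At 1 FPKM or more in all 8 other groups were 4 members, CL18046.Contig1_All, CL13724.Contig1_All, CL18096.Contig2_All and CL18377.Contig1_All.

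The 14 members under 1 FPKM in every hypothalamus and gonad group had a median of 11.8 FPKM in UP, 1.26 FPKM in FP and 2.87 FPKM in MP. Besides Unigene52825_All they were of low or moderate level, such as Unigene51026_All with 20.4 ± 5.34 FPKM in UP and 7.05 ± 2.10 FPKM in MP (SD, n = 6 each). Unigene68609_All was listed at 0 in 30 of the 39 other libraries, the most of any member, and was picked out after its values were seen. It had 5.90, 6.93, 7.11, 6.44, 9.03 and 3.90 FPKM in UP, and its highest value elsewhere was 3.74 FPKM in MP replicate 4, so the groups did not overlap.

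The 8 members of gonad but not hypothalamus included Unigene32666_All. It had between 18.0 and 30.9 FPKM in UP with a median of 24.5, and between 4.30 and 10.5 FPKM in MG and 3.74 and 15.6 FPKM in UG, while no UH library exceeded 0.519 FPKM. UP lay above MG and UG without overlap, and both of these lay above UH. CL12451.Contig1_All was of the same kind but overlapped, with 31.8, 65.7, 37.0, 63.0, 38.8 and 20.04 FPKM in UP against 24.3, 2.33, 3.49, 29.8, 7.86 and 23.8 FPKM in UG. UG replicates 1, 4 and 6 exceeded the lowest UP library.

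The 6 stage I fish did not share the members evenly. UP replicate 1 was the lowest of the 6 for 45 members and the highest for 4. Over the 80796 unigenes that reached 1 FPKM in 3 or more UP libraries, it was the lowest for 22.3% and the highest for 15.2%. The median deviation of the members from their own UP mean was -0.40 on the log2(FPKM + 1) scale in UP replicate 1, against -0.05 for all unigenes, and it was between -0.09 and 0.16 in the other 5 fish. The highest fish was UP replicate 6 for 26 members, UP replicate 4 for 23, UP replicate 3 for 22 and UP replicate 5 for 18. Over the same 80796 unigenes these fish were highest for 21.3%, 21.2%, 16.6% and 13.4%, in the same order. The counts lay near these shares, so nothing is read from them. The library with the highest value held 18.2% to 39.1% of a member's summed FPKM over UP, with a median of 25.5%.

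**Figure D4:**
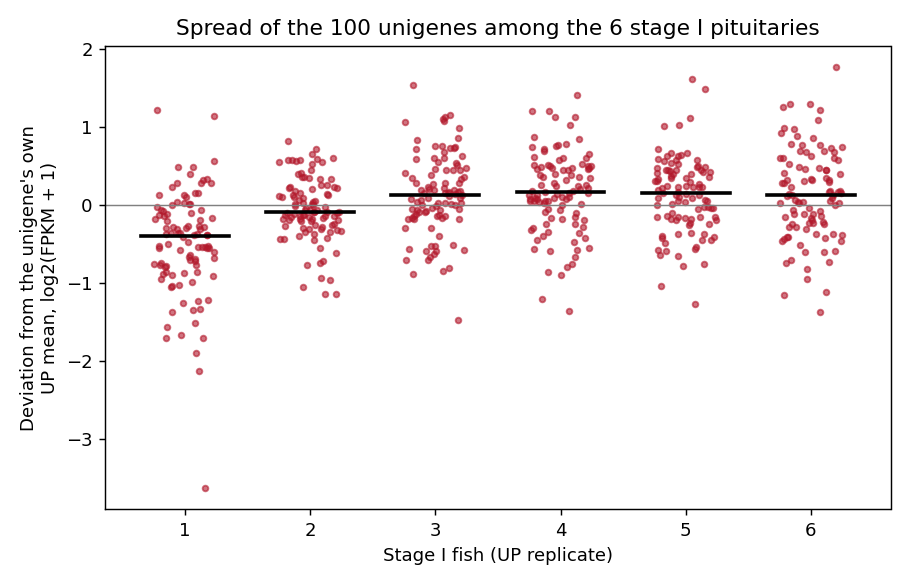
Deviation of each of the 100 unigenes from its own UP mean in each stage I fish (points, log2(FPKM + 1)), with the median over members as a line. UP replicate 1 has the lowest median, -0.40, and the other 5 medians lie between -0.09 and 0.16.

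The spread over the 6 fish differed widely between members. The range of log2(FPKM + 1) over UP was between 0.34 and 5.40 with a median of 1.39, with 21 members under 1 and 21 members at 2 or more. The smallest range was that of Unigene59076_All, with 22.6, 25.1, 28.9, 28.0, 25.4 and 28.6 FPKM in UP. It was followed by Unigene65599_All with a range of 0.52 and CL18046.Contig1_All with 0.55. The largest range was that of Unigene61356_All, with 0.279, 13.3, 8.05, 35.6, 47.5 and 53.0 FPKM in UP, and MP replicate 1 was listed at 0. Unigene32237_All with 3.39 and Unigene49450_All with 3.20 came next, and in all 3 the lowest library was UP replicate 1.

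The fish highest in the pituitary was also looked up in its other tissues. The fish with the highest UP value was also the highest in UH for 23 of 98 members and in UG for 18 of 91, or 23.5% and 19.8%. Over all unigenes the same shares were 23.9% and 20.1%, so the members gave no result of their own here.

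Leaving out each stage I fish gave values that the choice had not used. The 100 unigenes were chosen again on the other 5 fish, and their level in the left-out library was set against the 8 other group means. When UP replicate 1 was left out, 90 of the 100 lay above all 8 means in it, beside 15.3% of all unigenes. For replicates 2 to 6 the numbers were 99, 100, 94, 98 and 99, beside 17.1%, 19.5%, 20.5%, 17.1% and 20.2% of all unigenes. The median difference in the left-out library was 0.88 for UP replicate 1 and between 1.45 and 1.57 for the others, on the log2(FPKM + 1) scale. Of the original 100, between 81 and 87 were chosen again. The 8 group means were those the choice had used, so only the UP side is new in these values.

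Contigs of one cluster may share reads, which leaves the levels of single contigs uncertain. Identifiers beginning with CL name a contig of a cluster of similar assembled sequences, and 31 members in 28 clusters were of this kind, against 53.0% of all unigenes. In 21 of these clusters the table held another contig. The summed cluster had a score above 0 in 27 clusters and of 1 or more in 22. For CL14901 the contigs had scores of 0.71, 0.40, 1.55, 2.98 and 0.52, and the sum had a score of 0.84, so that the highest score of all belonged to 1 of 5 contigs. CL14901.Contig4_All made up 10.7% of its cluster's FPKM in UP. CL2391.Contig2_All made up 56.4% of its own, and the summed cluster had a score of 0.50.

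The clusters CL14901, CL4359 and CL13182 gave 2 members each. In CL4359 both contigs were higher in UP than in MP, with 14.6 ± 2.97 and 11.6 ± 2.95 FPKM in UP and 3.66 ± 0.835 and 2.95 ± 1.25 FPKM in MP for Contig1 and Contig2 (SD, n = 6 each). They parted in the females, with 1.13 ± 0.544 and 3.04 ± 0.999 FPKM in FP and 1.51 ± 0.323 and 0.341 ± 0.106 FPKM in FG (SD, n = 3 each). In CL12451 the contigs disagreed. CL12451.Contig2_All, which was not a member, had 91.6 ± 27.1 FPKM in UP and 297 ± 152 FPKM in UG (SD, n = 6 each), and the sum of the cluster had a score of -1.08.

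The other 8 groups were compared with each other to ask where the members stood without the stage I pituitary. The rule used only the highest of these 8 means, and the comparisons between them were fitted with limma over all unigenes at 1 FPKM or more in enough libraries, with Benjamini-Hochberg adjustment and a threshold of 0.05. Because the members were chosen for a highest other mean that was low beside UP, their counts are set against the share of all unigenes called in the same comparison. Members under the filter were not tested, and the counts say nothing of them. A member counts here as passed through 1 group alone if that group, and not the other, reached 1 FPKM in enough libraries. Such a member was tested through the group where it was high, which bears on its direction. The number of such members is therefore given, and the counts are a description. Other members passed only over both groups together. These were 14 in MP minus MH, 14 in MP minus MG, 7 in FP minus FH and 4 in FP minus FG. They were 1 in FP minus MP, 12 in UG minus UH, 13 in MH minus UH and 13 in MG minus UG. Comparisons that share a group are not independent of each other.

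In the stage II males, the called members were nearly all higher in the pituitary. In MP minus MH, 67 of the 89 members tested were higher, where 21.7% of all unigenes tested were higher, and 2 were lower, where 27.5% were lower. In MP minus MG, 67 of the 88 tested were higher and 0 lower (1 lower at an unadjusted p under 0.05), where 20.2% of all unigenes were higher and 41.3% lower. The median log2 fold change of the tested members was 1.05 in MP minus MH and 1.28 in MP minus MG, against -0.01 and -0.27 over all unigenes tested. Of the tested members, 41 in MP minus MH and 55 in MP minus MG had passed the filter through MP alone. Without the filter, 74 members were higher and 2 lower in MP minus MH, where 18.2% of all unigenes were higher and 22.6% lower. In MP minus MG, 74 were then higher and 0 lower, where 18.8% of all unigenes were higher and 35.8% lower.

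The largest log2 fold change in MP minus MH was that of Unigene52825_All, although with a pseudocount of 0.1 CL12451.Contig1_All came before it (6.09 against 6.05). Its MP libraries had between 19.9 and 126 FPKM with a median of 71.2, against 0.467 to 0.946 FPKM with a median of 0.796 in MH. The groups did not overlap, and the log2 fold change was 5.02 (SE 0.41, limma adjusted p = 1.1e-07). CL12451.Contig1_All had 6.79 to 22.0 FPKM with a median of 14.4 in MP and 0 to 0.332 FPKM with a median of 0.105 in MH. It did not overlap either, with a log2 fold change of 3.68 (SE 0.22, limma adjusted p = 3.4e-09). Both unigenes had passed the filter through MP alone, since no MH library of either reached 1 FPKM.

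The 2 members lower in MP than in MH were Unigene16938_All and Unigene13282_All. Unigene16938_All had 2.04 to 3.43 FPKM with a median of 2.77 in MP and 3.41 to 6.55 FPKM with a median of 4.65 in MH, overlapping by a narrow margin. The log2 fold change was -0.63 (SE 0.15, limma adjusted p = 0.0022), and the call was lost in 1 fit over all 9 groups (limma adjusted p = 0.136). Unigene13282_All had 0.500 to 2.30 FPKM in MP and 2.09 to 4.27 FPKM in MH, which also overlapped, with a log2 fold change of -0.62 (SE 0.19, limma adjusted p = 0.0143). It had passed the filter through MH alone. UP had 27.9 ± 4.70 FPKM for Unigene16938_All and 11.02 ± 3.34 FPKM for Unigene13282_All (SD, n = 6 each). The rule itself set UP above every hypothalamus group mean for all members.

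Against the testis, Unigene52825_All again had the largest log2 fold change, although CL2391.Contig2_All came before it with a pseudocount of 0.1 (8.11 against 7.90). It had 19.9 to 126 FPKM in MP, at most 0.404 FPKM in MG and a log2 fold change of 5.61 in MP minus MG (SE 0.41, limma adjusted p = 3.4e-08). CL2391.Contig2_All had 19.4 to 92.1 FPKM with a median of 40.8 in MP and 0 to 0.287 FPKM with a median of 0.0435 in MG. Its groups did not overlap, and the log2 fold change was 5.35 (SE 0.27, limma adjusted p = 7.6e-10). Here too both unigenes had passed the filter through MP alone. With the hypothalamus and pituitary of male fish 4 exchanged, as the title words have it, limma called 0 members in MP minus MH (33 at an unadjusted p under 0.05) and also 0 of all 80450 unigenes. The same exchange left 36 of the 68 members tested called in MP minus MG, all higher. Of all unigenes, 16.4% were then higher and 39.99% lower. For Unigene52825_All, MP replicate 4 had 114 FPKM and no MH library exceeded 0.946 FPKM under the sample codes. With male fish 4 left out, 63 members were higher and 2 lower in MP minus MH, where 19.4% of all unigenes were higher and 27.0% lower. In MP minus MG, 62 were then higher and 0 lower, where 18.6% were higher and 39.6% lower.

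**Figure D5:**
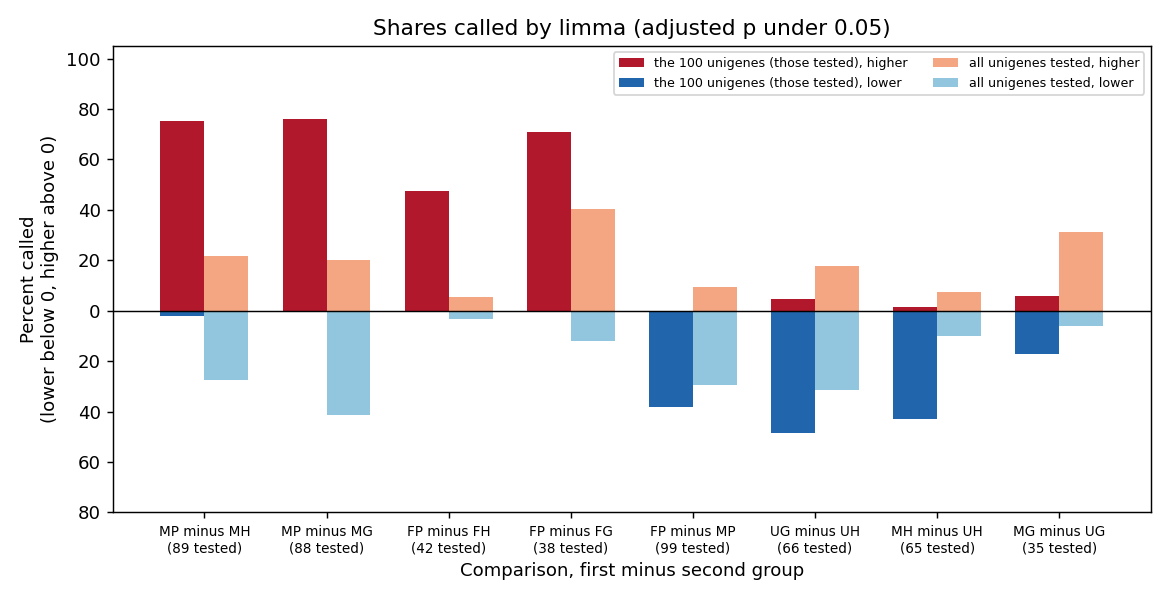
Percent of the tested members (dark) and of all unigenes tested (light) called higher (above 0) or lower (below 0) by limma in 8 comparisons of groups other than UP. In MP minus MH, MP minus MG, FP minus FH and FP minus FG the dark bars lie almost wholly above 0, and in FP minus MP, UG minus UH and MH minus UH almost wholly below 0. Many tested members passed the filter only through the group where they were high, which bears on direction. Through MP alone passed 41 in MP minus MH, 55 in MP minus MG and 65 in FP minus MP. Through FP alone passed 28 in FP minus FH and 31 in FP minus FG. Through UH alone passed 40 in UG minus UH and 18 in MH minus UH.

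In the females fewer members could be tested. In FP minus FH, 20 of the 42 members tested were higher and 0 lower (0 also at an unadjusted p under 0.05), where 5.37% of all unigenes were higher and 3.44% lower. In FP minus FG, 27 of the 38 tested were higher and 0 lower (again 0 at an unadjusted p under 0.05), where 40.3% were higher and 12.1% lower. The median log2 fold change of the tested members was 1.30 in FP minus FH and 1.78 in FP minus FG, against 0.27 and 0.72 over all unigenes. The filter passed 28 of the 42 and 31 of the 38 through FP alone, which left few that could be lower in FP. Without the filter, 4 of 98 members were called in FP minus FH and 34 of 98 in FP minus FG, all higher, where 0.762% and 16.4% of all unigenes were higher. The count in FP minus FH fell when 1 library was left out, and so did the share of all unigenes that were higher. It was 3 without FP replicate 2, where 1.11% of all unigenes were higher, and 4 without FH replicate 2 (0.983%). It was 4 without FH replicate 3 (1.47%) and 5 without FP replicate 3 (1.56%). Without FH replicate 1 it was 11 (2.17%), and without FP replicate 1 it was 17 (4.64%).

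Unigene52825_All was well above the other tissues in the females as well. It had 63.7, 19.0 and 47.2 FPKM in FP, against 0.113, 0.0257 and 0.0846 FPKM in FH and 0.0284, 0 and 0 FPKM in FG. There was no overlap, and the log2 fold change was 5.21 in FP minus FH (SE 0.53, limma adjusted p = 0.0004) and 5.30 in FP minus FG (SE 0.48, limma adjusted p = 9.9e-05). Unigene52825_All had passed the filter through FP alone in each comparison, as had CL2391.Contig2_All. CL2391.Contig2_All had 114, 11.1 and 7.45 FPKM in FP, against 0.449, 2.86 and 0.321 FPKM in FH and 0.0809, 0 and 0 FPKM in FG. FP replicate 1 stood far above the other FP libraries, and its log2 fold change was 3.54 in FP minus FH (SE 0.88, limma adjusted p = 0.0284) and 4.47 in FP minus FG (SE 0.83, limma adjusted p = 0.0016). The call in FP minus FH was lost without FH replicate 1, 2 or 3 and without FP replicate 2 or 3, where the log2 fold change was between 3.26 and 4.26. It was also lost with median-of-ratios scaling (limma adjusted p = 0.0677) and without the filter (limma adjusted p = 0.178).

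Between the stage II pituitaries, 38 of the 99 members tested were lower in FP than in MP and 0 were higher (0 also at an unadjusted p under 0.05), where 29.7% of all unigenes were lower and 9.32% higher. The median log2 fold change of the tested members was -0.95, against -0.36 over all unigenes tested. The filter passed 65 of the 99 through MP alone. The paper reports differences among the female replicates and proposes different families as a possible reason. The family of each female was not given, so family and platform cannot be told apart. The females were divided by platform, with FP replicate 1 nearest to MP. It was the highest of the 3 females for 62 of the 91 members at 1 FPKM or more in an FP library, or 68.1%, against 50.9% of all unigenes at that level. Without FP replicate 1, 60 members were lower, where 39.8% of all unigenes were lower. Without FP replicate 2, 25 were lower, where 16.2% were lower, so the counts moved with the share over all unigenes. With the HiSeq 2000 libraries alone, FP was 1 library, assumed to vary like MP. The fit then called 15 members lower and 4 higher, where 7.87% of all unigenes were lower and 9.76% higher.

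Unigene36337_All had 0.712, 0 and 0.490 FPKM in FP, against 8.26 to 20.5 FPKM with a median of 10.7 in MP. All FP libraries were far below all MP libraries, and the log2 fold change was -3.32 (SE 0.31, limma adjusted p = 0.0002). Unigene36337_All had passed the filter through MP alone. Unigene32583_All had 7.84, 0 and 0.309 FPKM in FP, against 15.3 to 26.6 FPKM with a median of 19.6 in MP. It did not overlap either, with a log2 fold change of -3.21 (SE 0.55, limma adjusted p = 0.0021). FP replicate 1, at 7.84 FPKM, stood above the other females. Without FP replicate 1 the log2 fold change was -4.19. With only the libraries of its platform, FP was that library alone and the log2 fold change was -1.24. The size of the difference thus depended on which females were used. Unigene32583_All too had passed the filter through MP alone.

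In the stage I fish themselves, the members were more often lower in the gonad than in the hypothalamus. In UG minus UH, 32 of the 66 members tested were lower and 3 higher, where 31.5% of all unigenes were lower and 17.9% higher. The median log2 fold change of the tested members was -0.80, against -0.14 over all unigenes. The filter passed 40 of the 66 through UH alone. CL2391.Contig2_All was listed at 0 in all 6 UG libraries, against 11.8 to 34.3 FPKM with a median of 26.0 in UH (limma adjusted p = 3.1e-10), and no fold is given against a group at 0. Unigene48396_All had 0 to 0.232 FPKM in UG and 15.4 to 24.3 FPKM in UH, without overlap, and a log2 fold change of -4.25 (SE 0.18, limma adjusted p = 4.7e-11). Both unigenes had passed the filter through UH alone.

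The members higher in UG than in UH went the other way. CL12451.Contig1_All had 2.33 to 29.8 FPKM with a median of 15.8 in UG and 0 to 0.327 FPKM in UH, with a log2 fold change of 3.45 (SE 0.49, limma adjusted p = 2.5e-05). Unigene32666_All had 3.74 to 15.6 FPKM with a median of 5.34 in UG and 0 to 0.519 FPKM in UH, with a log2 fold change of 2.67 (SE 0.29, limma adjusted p = 1.6e-06). Neither overlapped between the groups, and both had passed the filter through UG alone.

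The comparison of stage II with stage I in the other tissues asked whether the members changed there too. In the hypothalamus, 28 of the 65 members tested were lower in MH than in UH and 1 was higher, where 10.1% of all unigenes were lower and 7.21% higher. The median log2 fold change of the tested members was -0.55, against -0.01 over all unigenes. The filter passed 18 of the 65 through UH alone. With male fish 4 exchanged, 4 members were called, 2 in each direction, where 5.09% of all unigenes were lower and 3.20% higher. UH was the group with the second highest mean for 25 members, a value that the rule used.

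Unigene48396_All had 2.96 to 9.31 FPKM with a median of 5.53 in MH and 15.4 to 24.3 FPKM with a median of 18.5 in UH. The groups did not overlap, and the log2 fold change was -1.65 (SE 0.19, limma adjusted p = 0.0002). Unigene32583_All had 2.73 to 9.02 FPKM with a median of 6.62 in MH and 12.4 to 24.04 FPKM with a median of 16.9 in UH, also without overlap, and a log2 fold change of -1.38 (SE 0.23, limma adjusted p = 0.0019). The member higher in MH was Unigene36337_All, with 2.52 to 6.73 FPKM in MH and 1.65 to 3.49 FPKM in UH, overlapping, and a log2 fold change of 0.66 (SE 0.19, limma adjusted p = 0.0298). That call was lost when any of 7 libraries was left out, MH replicate 1, 3, 5 or 6 or UH replicate 2, 3 or 4, with log2 fold changes between 0.56 and 0.65.

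In the gonad 65 members were under the filter. In MG minus UG, 6 of the 35 members tested were lower and 2 higher, where 6.19% of all unigenes were lower and 31.1% higher. The median log2 fold change of the tested members was -0.16, against 0.39 over all unigenes. The filter passed 8 of the 35 through MG alone and 3 through UG alone. Without the filter, 10 of 96 members were lower and 15 higher, where 4.49% of all unigenes were lower and 27.2% higher. The larger count of members was thus lower with the filter and higher without it. With median-of-ratios scaling 7 members were lower and 1 was higher, where 12.2% of all unigenes were lower and 14.7% higher. Unigene2635_All had 0 to 1.52 FPKM with a median of 0.130 in MG and 0.484 to 3.33 FPKM with a median of 2.18 in UG, overlapping, with a log2 fold change of -1.23 (SE 0.27, limma adjusted p = 0.0037). CL17239.Contig2_All had 1.96 to 5.21 FPKM with a median of 3.81 in MG and 0 to 2.08 FPKM with a median of 0.378 in UG, also overlapping, with a log2 fold change of 1.51 (SE 0.28, limma adjusted p = 0.0013). It had passed the filter through MG alone.

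The other named members of that comparison were less stable. CL3732.Contig1_All had 3.22 to 5.28 FPKM in MG and 0.755 to 3.39 FPKM in UG, with a log2 fold change of 0.77 (SE 0.23, limma adjusted p = 0.0171), and with median-of-ratios scaling it was 0.44 and not called. This unigene, too, had passed the filter through MG alone. CL12451.Contig1_All had 1.58 to 6.10 FPKM in MG and 2.33 to 29.8 FPKM in UG, with a log2 fold change of -1.40 (SE 0.52, limma adjusted p = 0.0445). Its call was lost without MG replicate 1, 2, 3, 4 or 6 or without UG replicate 1, 4 or 6, where the log2 fold change was between -1.51 and -1.12.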

How the data were processed

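RNA was extracted with TRIzol from the hypothalamus, pituitary and gonad of each fish. Reads cleaned with SOAPnuke were pooled over the 45 libraries for assembly (Trinity, then TGICL), and the authors mapped them with SOAP2 and derived the deposited FPKM values with RSEM; no read counts were used here. All 45 columns were used, and 0 were left out. Tests ran on log2(FPKM + 1), which understates fold changes of low unigenes.

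The members and the tests were chosen with earlier results of these data known. Named unigenes are the 10 highest scores, the 3 just inside and outside the limit, the 5 highest in UP, the 3 smallest and 3 largest UP ranges, the 2 highest and 2 lowest called fold changes per comparison, and clusters with 2 or more members. Other names are examples chosen after their values were seen.

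Each comparison was fitted with limma 3.58.1 (lmFit, eBayes with trend) in R 4.3.3 over its 2 groups. A unigene entered if it reached 1 FPKM in a number of libraries equal to the smaller group. Benjamini-Hochberg adjusted p under 0.05 made a call. The authors' NOISeq was not used here. The fitting step was run on simulated data for MP minus MH and FP minus FH. Changes were added there only to unigenes of high level, so that run says nothing of members at low levels. The replicates were separate fish, and 0 pairs of libraries were identical.

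The study's methods state that 3 tissues were taken from each fish, so same-numbered libraries within a sex or stage are paired. The correlation of their deviations from the group means was 0.228 to 0.384 for MP and MH, 0.252 to 0.349 for MP and MG, 0.445 to 0.623 for FP and FH, 0.227 to 0.453 for FP and FG and -0.248 to 0.259 for UG and UH. Relative depth was read from values under 0.15 FPKM. Alternatives were a smaller pseudocount (0.1), median-of-ratios scaling, omitting the filter, 1 fit over all 9 groups, the fish as a replicate block, using only HiSeq 2000 libraries, exchanging or dropping male fish 4, and dropping each library in turn. Python 3.11.15, NumPy 2.4.6, pandas 2.3.3 and Matplotlib 3.10.9 were also used.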

Additional observations from a re-analysis of the deposited data

Results flagged for a closer look

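In 2 of the 61 groups of 4 or more libraries examined, 1 library lay far from the others of its group. Chance alone gives such a library in about 1 in 20 groups. For a unigene named in a comparison, the compared groups were examined, and for the other named unigenes only UP. The members' percent of summed FPKM per library was examined too. Other groups were not examined, such as MH for Unigene70826_All, where the single high library described above was thus not among the 61 groups. MG replicate 4 had 1.52 FPKM of Unigene2635_All, against 0 to 0.264 FPKM in the other 5 MG libraries. MG replicate 5 had 0.287 FPKM of CL2391.Contig2_All, against 0 to 0.0902 FPKM in the other 5. Both values are far under the lowest UP library.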

How the results depend on the processing

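Of the 100 members, 70 were chosen again with a pseudocount of 0.1 and 70 with group medians, 75 with male fish 4 exchanged, 88 with contigs summed, 93 with scaling and 81 to 87 without 1 UP library, but 31 when the lowest UP library was set against the highest other library. The members without overlap numbered 37 with scaling, against 55. No share over all unigenes is set beside the scaled count, so nothing is read from the fall. Scaling divided the UP libraries by 1.22 to 1.31, MP by 1.01 to 1.11 and FP by 0.857 to 0.994. It divided FG by 0.299 to 0.606 and MG by 1.37 to 1.53. Scaling thus lowered UP beside MP, FP and FG and raised it beside MG. Over all tested unigenes, scaling brought the median log2 difference to 0.05 (unscaled -0.27) in MP minus MG, -0.01 (0.27) in FP minus FH, 0.00 (0.72) in FP minus FG, -0.24 (-0.36) in FP minus MP and 0.06 (0.39) in MG minus UG. The members' calls were then 74, 17, 29, 34 and 8. Of all unigenes, 31.6%, 3.72%, 25.4%, 12.1% and 14.7% were then higher, in the same order. Lower were 27.6%, 4.46%, 23.6%, 25.5% and 12.2%.

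With male fish 4 exchanged, limma called 0 members in MP minus MH (33 at an unadjusted p under 0.05) and 0 of all unigenes, 36 in MP minus MG, 21 in FP minus MP and 4 in MH minus UH. The 36 in MP minus MG were all higher, where 16.4% of all unigenes were higher and 39.99% lower. The 21 in FP minus MP were all lower, where 22.8% of all unigenes were lower and 7.59% higher. Without the filter limma called 4 members in FP minus FH, all higher, where 0.762% of all unigenes were higher. It called 25 in MG minus UG (15 higher, 10 lower), where 27.2% of all unigenes were higher and 4.49% lower. HiSeq 2000 libraries alone gave 19 in FP minus MP, with 1 FP library assumed to vary like MP, and they could not be fitted in FP minus FH and FP minus FG, where each group kept 1 library. In that exchange MP and MH each held 1 library of the other tissue by its values; the other causes were not tested.

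With the replicate block by fish the calls were 73 in MP minus MH, 70 in MP minus MG, 25 in FP minus FH, 29 in FP minus FG and 37 in UG minus UH, none over 1.5 times the unblocked count. Of all unigenes, 24.1%, 22.1%, 11.5%, 46.7% and 17.2% were then higher, in the same order. Lower were 29.5%, 44.5%, 7.46%, 15.4% and 30.9%. In FP minus MP, MH minus UH and MG minus UG the numbers mark different fish. Own-number correlations were -0.166 to 0.0487, -0.0338 to 0.209 and -0.102 to 0.0383. The block gave 28 calls in MH minus UH, where 9.66% of all unigenes were lower and 7.04% higher. It gave 8 in MG minus UG, where 5.44% were lower and 27.8% higher. In FP minus MP the block was fitted without MP replicates 4, 5 and 6. It gave 10 calls there, all lower, where 3.79% of all unigenes were lower and 1.41% higher.

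Leaving out 1 library gave 66 to 70 calls in MP minus MH, 63 to 72 in MP minus MG, 3 to 17 in FP minus FH, 28 to 35 in FP minus FG, 25 to 60 in FP minus MP, 34 to 44 in UG minus UH, 23 to 29 in MH minus UH and 6 to 12 in MG minus UG. Of all unigenes, 19.7% to 21.6% were then higher in MP minus MH and 18.8% to 20.6% in MP minus MG. Higher in FP minus FH were 0.983% to 4.64%, and in FP minus FG 22.5% to 41.5%. Lower were 16.2% to 39.8% in FP minus MP, 28.6% to 32.5% in UG minus UH and 7.36% to 10.1% in MH minus UH. In MG minus UG, 24.8% to 34.9% were higher and 5.08% to 6.57% lower. Of the 23 pairs of a named unigene and a comparison, 14 were called under every alternative that kept the unigene, and no direction was reversed. Depth was known only relative to other libraries.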
